A study of Homo sapiens with 24 samples.

Results

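The ID genes ID1, ID2, ID3 and ID4 encode the inhibitors of DNA binding, a small family of helix-loop-helix proteins. They were chosen by gene symbol in a table of counts on RefSeq transcripts, in which 5 of the 64519 accessions carry these 4 names. The family was singled out because ID3 fell with dexamethasone (dex) and was higher again in dex-treated cells after depletion of a coregulator. Those ID3 values are therefore described here without a test, whereas ID2 and ID4 entered by family name and were tested throughout. ID1 has 2 accessions and the others have 1 each. Of the 5, 3 exceeded 1 CPM, here a count relative to the total counts of its library, in 2 or more libraries. These could be tested: NM_002166 (ID2), NM_002167 (ID3) and NM_001546 (ID4). The CPM values given below are relative to the scaled size of the library.

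RNA was sequenced from Nalm6 cells, an established line of B-cell acute lymphoblastic leukemia (B-ALL), in 24 libraries. The cells had been transduced with lentivirus and selected as puromycin-resistant populations, not clones. They expressed an shRNA against a non-specific sequence (shNS), the histone methyltransferases G9a (shG9a) or GLP (shGLP), or the heterochromatin protein HP1γ (shHP1g), and each population received 100 nM dex, a synthetic glucocorticoid, or the vehicle ethanol for 8 h. Each of the 8 conditions had 3 biological replicates made on different days, and the replicate number was kept in the model as a block. The comparisons ask how dex changes a transcript, and whether its level with or without dex depends on G9a, GLP or HP1γ, coregulators of the glucocorticoid receptor.

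An ID protein has a helix-loop-helix domain but lacks the basic region that contacts DNA. It pairs with the E proteins TCF3, TCF4 and TCF12 and keeps them from their target sites, the E-boxes. In the B lineage the E proteins drive early genes such as RAG1, IGLL1 and VPREB1, and ID2 and ID3 restrain them. BMP and TGF-beta signals through SMAD proteins and the EGR factors are known inducers of ID genes.

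The libraries held between 9289533 and 14387770 counts, and the ID transcripts made up 0.0234% to 0.0567% of them. Both shHP1g libraries of replicate 1 stood apart from their group: replicate pairs with them had a chi-squared statistic per degree of freedom of 21.6 to 30.3 over transcripts, and pairs with replicate 2 of shG9a in dex had 27.8 to 43.2, against 3.69 to 13.4 for all other pairs. The known dex target TSC22D3 (NM_004089) rose from 8.05 ± 0.901 to 88.9 ± 8.93 CPM (SD, n = 3) in shNS cells. The authors report efficient depletion of the targeted proteins and their mRNAs in the sequenced cells, by immunoblot and RT-qPCR. The depleted genes are thinly covered in this table, so its counts are only a weak check of the depletion. EHMT1, which encodes GLP, had 43 to 50 counts per library in shNS ethanol and 18 to 34 in shGLP ethanol, with a log2 fold change of −0.65 that did not pass the test (edgeR adjusted p = 0.0923). In dex its counts were 29 to 46 in shNS and 21 to 33 in shGLP (log2 fold change −0.37, adjusted p = 0.41). Of the 6 accessions of EHMT1, 5 were at 0 in every library, so these values rest on a single accession. CBX3 (NM_016587), which encodes HP1γ, had 39 to 48 counts in shNS dex and 18 to 38 in shHP1g dex (log2 fold change −0.61, adjusted p = 0.142). In ethanol it had 42 to 49 counts in shNS and 27 to 33 in shHP1g (log2 fold change −0.50, adjusted p = 0.277). The second tested accession of CBX3, NM_007276, had 32 to 44 and 25 to 32 counts in the same ethanol groups (log2 fold change −0.30, adjusted p = 0.644), and in dex 30 to 40 in shNS and 25 to 41 in shHP1g (log2 fold change −0.15, adjusted p = 0.842). EHMT2, which encodes G9a, had no entry among the counts as named here, so its depletion could not be checked in them. Of the markers of B-cell precursors, CD79A, IGLL1 and MME averaged more than 3 counts, whereas CD79B, CD22, PAX5, EBF1, VPREB1 and DNTT did not. The latter have several RefSeq entries each, and 12 of 13 for PAX5, 9 of 10 for EBF1, 4 of 4 for CD79B and 5 of 5 for CD22 were at 0 in every library. Low counts of such genes, here and among the markers below, are therefore not read as absence of their RNA. T and NK cell markers summed to 8.73 to 16.7 CPM, all but NKG7 at or under a mean of 3 counts, and erythroid and platelet markers to at most 0.513 CPM. Myeloid markers summed to 2.74 to 34 CPM. Of these, LYZ was higher with shGLP in dex (log2 fold change 3.22, adjusted p = 5.94e-07) and in ethanol (2.71, adjusted p = 3.21e-06), and its part in the shGLP results was not tested.

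ID1 could not be quantified from the table. NM_002165 had 0 counts in all 24 libraries, and NM_181353 had 7 counts in total, 1 in each of 7 libraries. At these depths 3 counts correspond to 0.216 to 0.317 CPM, a limit that covers counting error only. GENCODE lists 2 coding transcripts of ID1 (hg19, chr20:30193086-30194318, plus strand), an unspliced one of 1233 bases and a spliced one of 983 bases, and 100% of the spliced one lies within the other. How the counting treated reads shared by transcripts is not given in the sources used here. Among genes with 1 accession, 26.3% of 15702 accessions were at 0 in every library, against 73.9% of 48043 accessions of genes with several. The zeros of ID1 are therefore not read as absence of its RNA. The E proteins show the same pattern: of 48 accessions of TCF3, TCF4 and TCF12, 44 were at 0 everywhere, the highest count in any library was 9, and none passed the filter, so the partners of the ID proteins have no level here.

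The upstream sequences of the 3 quantified members are shown because their transcripts went in different directions with dex. Each run gives the 250 bases before the transcription start, 5′ to 3′ on the gene's strand, taken from RefSeq for GRCh38.p14 and matched exactly and once to GRCh37. The capitals mark the E-box CANNTG and the glucocorticoid receptor half-site AGAACA on either strand, and TATAA on the gene's strand. The windows are chr1:23885993-23886242 on the minus strand for ID3, chr2:8821936-8822185 on the plus strand for ID2 and chr6:19837351-19837600 on the plus strand for ID4.
ID3: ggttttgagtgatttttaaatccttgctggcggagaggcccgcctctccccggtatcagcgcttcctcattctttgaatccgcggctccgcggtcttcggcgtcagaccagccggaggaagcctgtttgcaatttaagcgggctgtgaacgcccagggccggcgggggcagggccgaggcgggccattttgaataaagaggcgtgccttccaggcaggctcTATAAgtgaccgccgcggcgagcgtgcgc
ID2: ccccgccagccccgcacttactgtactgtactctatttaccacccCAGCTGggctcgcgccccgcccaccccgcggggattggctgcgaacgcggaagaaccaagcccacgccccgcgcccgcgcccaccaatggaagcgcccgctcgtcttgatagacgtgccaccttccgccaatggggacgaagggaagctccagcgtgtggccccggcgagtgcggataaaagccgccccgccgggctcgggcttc
ID4: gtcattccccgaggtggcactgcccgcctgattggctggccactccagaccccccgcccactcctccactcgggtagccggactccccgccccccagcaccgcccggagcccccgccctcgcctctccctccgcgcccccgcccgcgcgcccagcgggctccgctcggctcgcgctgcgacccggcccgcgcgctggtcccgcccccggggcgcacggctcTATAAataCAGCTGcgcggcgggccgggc
ID3 and ID4 both carried TATAA starting 29 bases before the start, a motif found in 13.6% of 35116 RefSeq promoters of the same length, and ID2 had none. The E-box, which 61.8% of promoters hold, was present 205 bases before the start of ID2 and 21 bases before that of ID4, and absent from the ID3 window. The EGR core GCGGGGGC, held by 8.0% of promoters, was found 1 time in ID3, 89 bases before the start, and 2 times in ID4. None of the 3 windows held the half-site AGAACA (12.4% of promoters) or its palindrome, the BMP-responsive element GGCGCC (16.4%), the SMAD palindrome GTCTAGAC (0.2%) or the cAMP response element TGACGTCA (1.6%), all searched on both strands. The windows were rich in G and C, at 62.0% for ID3, 69.2% for ID2 and 78.8% for ID4. ID1, which is not printed, had 66.0%, TATAA at 31 bases and an AGAACA half-site at 180 bases.

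ID3 was the most abundant member. In the B lineage it acts downstream of antigen receptor signals and holds E proteins in check. Its transcript (hg19, chr1:23884417-23885992, minus strand) has 3 exons and 950 bases. In shNS cells it stood at 302, 296 and 299 CPM in ethanol and at 126, 117 and 112 CPM in dex, in replicates 1, 2 and 3. The groups did not overlap, and the log2 fold change was −1.34 (SE 0.07). In this comparison the groups of 26.4% of all transcripts did not overlap. Depleted cells lost less ID3 with dex. With shG9a it went from 432, 376 and 397 CPM in ethanol to 243, 288 and 243 CPM in dex (log2 fold change −0.64, SE 0.07). With shGLP the values were 384, 378 and 369 CPM in ethanol and 239, 230 and 209 CPM in dex (log2 fold change −0.74, SE 0.07). With shHP1g they were 386, 385 and 356 CPM in ethanol and 182, 205 and 198 CPM in dex (log2 fold change −0.94, SE 0.07). Every dex library of a depleted population lay above every shNS dex library and below every ethanol library of the series. Against shNS in dex, the groups of 20.8% (shG9a), 20.8% (shGLP) and 15.7% (shHP1g) of all transcripts did not overlap. For dex against ethanol within these populations the shares were 17.2%, 18.2% and 10.7%.

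Set against shNS within dex, ID3 was higher by a log2 fold change of 1.13 with shG9a, 0.93 with shGLP and 0.73 with shHP1g (SE 0.07 each). The dex response itself was smaller by 0.70, 0.60 and 0.40 on the log2 scale (SE 0.09, 0.09 and 0.10). These values led to the choice of the family and carry no test, and the 3 depletions share the shNS libraries. Leaving out replicate 2 of shG9a in dex, which holds the highest of the 3 values, moved the shG9a difference in dex to 1.04 and the shG9a dex response to −0.72.

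In ethanol ID3 was higher in all 3 depleted populations. This contrast was not among those that led to the choice of the family, but its shNS ethanol libraries belong to the dex response that was, so its p values are not fully independent of the choice. The level was 299 ± 2.91 CPM in shNS, 402 ± 28.1 in shG9a, 377 ± 7.48 in shGLP and 375 ± 17.2 in shHP1g (SD, n = 3). The log2 fold change was 0.43 with shG9a (95% interval 0.29 to 0.56, edgeR adjusted p = 0.000422), 0.33 with shGLP (0.20 to 0.47, adjusted p = 0.00281) and 0.33 with shHP1g (0.19 to 0.46, adjusted p = 0.0062). Each was higher in 3 of 3 replicates with no overlap between the groups. The test called 3.73%, 3.61% and 2.91% of all 10167 transcripts in these comparisons, and the groups did not overlap for 19.2%, 18.3% and 14.6%. The calls were lost without replicate 3, with adjusted p values of 0.0703, 0.123 and 0.115. With no low-count filter the shHP1g difference was 0.24 and no longer passed (adjusted p = 0.129).

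Ordered by mean, ID3 was highest in shG9a ethanol, followed by shGLP and shHP1g ethanol, shNS ethanol, shG9a dex, shGLP dex, shHP1g dex and shNS dex. The 3 depleted ethanol groups overlapped and were not told apart by the test. The log2 differences were 0.09 between shG9a and shGLP (95% interval −0.04 to 0.23, adjusted p = 0.509), 0.10 between shG9a and shHP1g (−0.04 to 0.24, adjusted p = 0.469) and 0.01 between shGLP and shHP1g (−0.13 to 0.14, adjusted p = 0.981). In dex the ranges were separate: shG9a held 243 to 288 CPM, shGLP 209 to 239 and shHP1g 182 to 205. The corresponding log2 differences in dex were 0.19 between shG9a and shGLP, 0.40 between shG9a and shHP1g and 0.21 between shGLP and shHP1g, given without a test. In the same order, the groups of 19.7%, 14.6% and 14.2% of all transcripts did not overlap. In bulk RNA, fewer cells that express a gene and less RNA per cell cannot be told apart.

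**Figure D1:**
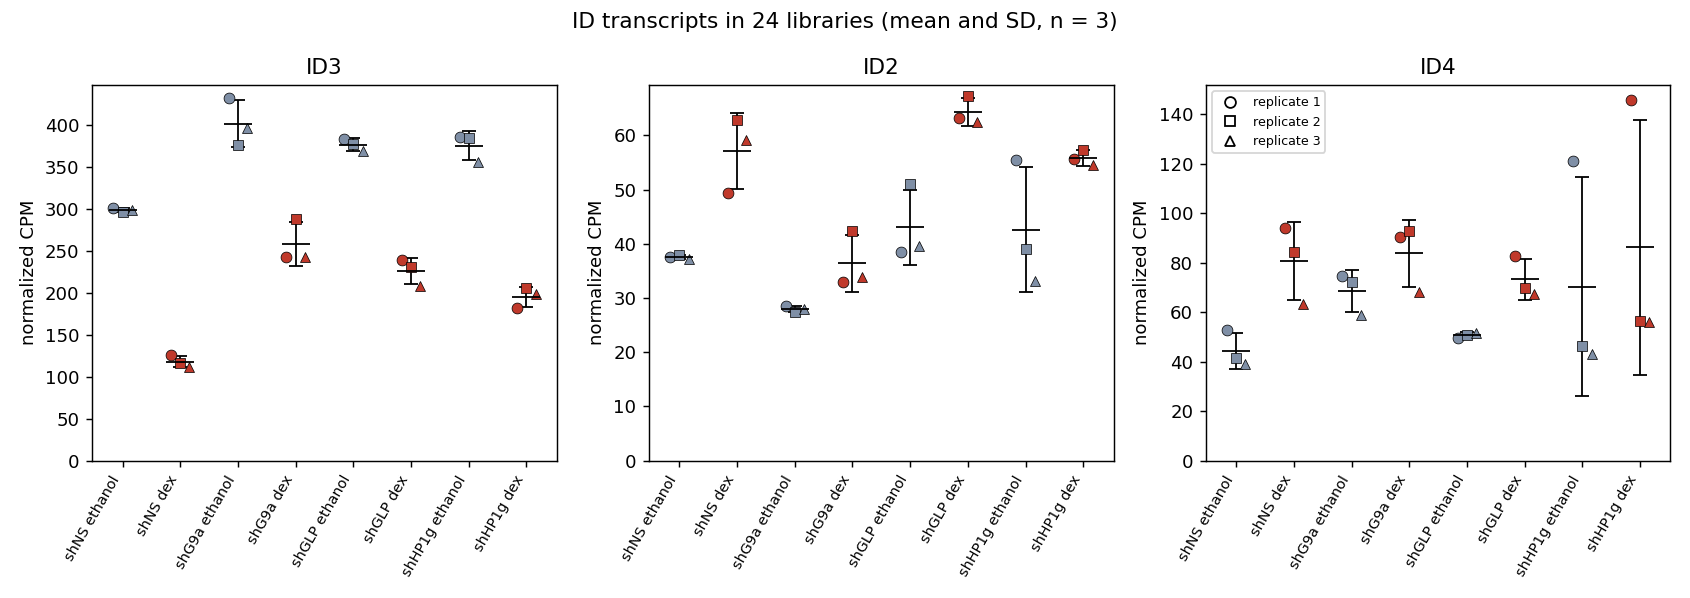
Normalized CPM of ID3, ID2 and ID4 in the 24 libraries (points, shaped by replicate; grey for ethanol, red for dex), with the mean and SD of 3 replicates per condition. ID3 was lowest in shNS dex at 112 to 126 CPM, ID2 was lowest in shG9a ethanol at 27.3 to 28.6 CPM, and the replicate 1 libraries of shHP1g reached 121 and 146 CPM for ID4.

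ID2 went the other way. ID2 restrains E proteins in lymphoid precursors and is needed for innate lymphoid cells. Its transcript (hg19, chr2:8822186-8824591, plus strand) has 3 exons and 1299 bases. In shNS cells ID2 stood at 37.6, 38.0 and 37.3 CPM in ethanol and at 49.3, 62.8 and 59.1 CPM in dex. The 3 dex values were all above the ethanol values, with a log2 fold change of 0.60 (95% interval 0.34 to 0.86, edgeR adjusted p = 0.00247). In this comparison 9.95% of all transcripts were called and 26.4% had groups that did not overlap. The call was lost without replicate 2 (adjusted p = 0.0507) and without replicate 3 (adjusted p = 0.117).

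The rise of ID2 with dex was also called in shGLP cells, from 38.6, 51.0 and 39.6 CPM to 63.15, 67.3 and 62.5 CPM (log2 fold change 0.58, 95% interval 0.32 to 0.85, adjusted p = 0.00869, against 3.29% of transcripts called and 18.2% without overlap). It was lost without replicate 3 (adjusted p = 0.301) and without replicate 1 or 3 of shGLP ethanol (adjusted p = 0.0791 and 0.0618). In shG9a cells ID2 was at 28.6, 27.3 and 28.0 CPM in ethanol and 32.9, 42.3 and 33.9 CPM in dex. This difference had no overlap between groups but did not pass the test (log2 fold change 0.38, 0.10 to 0.65, adjusted p = 0.101, with 6.24% called and 17.2% without overlap). In shHP1g cells it was at 55.5, 39.1 and 33.2 CPM in ethanol and 55.6, 57.3 and 54.5 CPM in dex (log2 fold change 0.39, 0.13 to 0.66, adjusted p = 0.112, with 3.22% called and 10.7% without overlap). The replicate 1 library of shHP1g in ethanol, one of the 2 that stood apart, held the high value. Without both, the log2 fold change was 0.63 in shHP1g (adjusted p = 0.00032) and 0.38 in shG9a (adjusted p = 0.00573).

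The dex response of ID2 was not shown to differ between depleted and shNS cells. The difference in log2 fold change was −0.22 for shG9a (95% interval −0.61 to 0.16, adjusted p = 0.82), −0.02 for shGLP (−0.39 to 0.35, adjusted p = 1) and −0.21 for shHP1g (−0.58 to 0.17, adjusted p = 1). The last turned to 0.03 without both shHP1g libraries of replicate 1 (adjusted p = 1). Few transcripts passed this test at all, 0.0885%, 0.118% and 0.0197% in the 3 interactions.

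ID2 was lower in cells with shG9a. In dex it stood at 36.4 ± 5.18 CPM, against 57.1 ± 6.98 CPM in shNS (SD, n = 3), a log2 fold change of −0.65 (95% interval −0.92 to −0.39, edgeR adjusted p = 0.00204). It was lower in 3 of 3 replicates, and the groups did not overlap. The test called 8.8% of transcripts and the groups of 20.8% did not overlap. Without replicate 3 the call was lost (adjusted p = 0.118). In ethanol it stood at 28.0 ± 0.614 CPM against 37.6 ± 0.347 CPM in shNS, again without overlap, but the log2 fold change of −0.43 (−0.71 to −0.15) missed the threshold (adjusted p = 0.0826). Without both shHP1g libraries of replicate 1 it passed, at −0.43 (adjusted p = 0.00281). With all libraries, 3.73% of transcripts were called in this ethanol comparison and 19.2% had no overlap.

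With shGLP and shHP1g, ID2 was not told apart from shNS. In dex the log2 fold changes were 0.17 with shGLP (−0.09 to 0.43, adjusted p = 0.554) and −0.03 with shHP1g (−0.29 to 0.22, adjusted p = 0.941). In these comparisons 5.77% and 4.09% of transcripts were called, and 20.8% and 15.7% had no overlap. In ethanol the log2 fold changes were 0.19 with shGLP (−0.08 to 0.46, adjusted p = 0.614) and 0.17 with shHP1g (−0.10 to 0.44, adjusted p = 0.617). The latter turned to −0.10 without both shHP1g libraries of replicate 1 (adjusted p = 0.712). The depletions themselves were then compared, after the values had been seen. ID2 was lower with shG9a than with shGLP, with a log2 difference of −0.82 in dex (adjusted p = 0.000157, 8.62% of transcripts called) and −0.62 in ethanol (adjusted p = 0.00488, 6.23% called). Against shHP1g the log2 difference was −0.62 in dex (adjusted p = 0.00401, 6.43% called) and −0.60 in ethanol (adjusted p = 0.00746, 6.07% called). All 4 differences had the same direction in 3 of 3 replicates. Without both shHP1g libraries of replicate 1, the ethanol difference from shHP1g was −0.33 (adjusted p = 0.0402). It was lost without the shHP1g ethanol library of replicate 1 alone (−0.33, adjusted p = 0.0628), without replicate 3 (adjusted p = 0.0678) and without replicate 2 of shG9a ethanol (adjusted p = 0.0579). The dex difference from shHP1g was lost without replicate 3 (adjusted p = 0.11). With only the groups of the comparison in the model, both differences from shHP1g were lost, at −0.64 in dex (adjusted p = 0.0635) and −0.58 in ethanol (adjusted p = 0.0709). The ethanol difference from shGLP had an adjusted p of 0.168 once replicate 2 was left out and of 0.102 once replicate 3 was, and neither passed. It also failed, by less than the rounding of its adjusted p of 0.05, without replicate 2 of shG9a ethanol. Between shGLP and shHP1g the log2 differences were 0.21 in dex (−0.05 to 0.46, adjusted p = 0.512, 4.02% called) and 0.02 in ethanol (−0.25 to 0.29, adjusted p = 0.975, 4.2% called). By mean, ID2 ran from 64.3 CPM in shGLP dex through 57.1 in shNS dex, 55.8 in shHP1g dex, 43.1 in shGLP ethanol, 42.6 in shHP1g ethanol, 37.6 in shNS ethanol and 36.4 in shG9a dex to 28.0 in shG9a ethanol.

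ID4 had the widest spread. ID4 is best known from neural and mammary development and is often silenced by promoter methylation in leukemia. Its transcript (hg19, chr6:19837601-19842428, plus strand) has 3 exons and 3873 bases. The gene of the long non-coding RNA LNC-LBCS lies on the opposite strand over 1711 bases of this genomic span, introns included. The overlap of exons was not computed. Whether the counts used the strand is not given in the sources used here, so reads of the 2 genes may be mixed. In shNS cells ID4 stood at 52.7, 41.5 and 38.9 CPM in ethanol and at 94.0, 84.3 and 63.3 CPM in dex. All dex values were above all ethanol values, with a log2 fold change of 0.86 (95% interval 0.38 to 1.34, edgeR adjusted p = 0.0168). Of all transcripts, 9.95% were called in this comparison and the groups of 26.4% did not overlap. Without the replicate block the fold change was 0.86 and the call was lost (adjusted p = 0.154). It was also lost without replicate 2 or 3 (adjusted p = 0.111 and 0.172), without replicate 1 or 2 of shNS ethanol (0.0898 and 0.0594) and without replicate 2 of shNS dex (0.0901).

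The 2 shHP1g libraries of replicate 1 decided much of the spread of ID4. They held 121 CPM in ethanol and 146 CPM in dex, against 46.1 and 43.2 CPM in the other ethanol libraries and 56.6 and 56.0 CPM in the other dex libraries of shHP1g. Without both, the SE of the shNS dex response fell from 0.23 to 0.09, its log2 fold change was 0.86 and its adjusted p was 3.61e-07. Values without the pair are given where the call or the direction changed. With dex, shGLP cells went from 49.7, 50.9 and 51.7 CPM to 82.7, 69.8 and 67.3 CPM (log2 fold change 0.51, adjusted p = 0.314), a difference that passed at 0.52 without the pair (adjusted p = 0.000839). In shG9a cells the values were 74.5, 72.3 and 58.8 CPM in ethanol and 90.5, 92.7 and 68.0 CPM in dex (log2 fold change 0.29, adjusted p = 0.508, and 0.29 with adjusted p = 0.0386 without the pair). In shHP1g cells the log2 fold change was 0.30 (adjusted p = 0.638) and remained uncalled without the pair (0.33, adjusted p = 0.161).

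In dex, the test did not separate ID4 in any depleted population from shNS. The log2 fold change against shNS was 0.07 with shG9a (95% interval −0.39 to 0.53, adjusted p = 0.894), −0.12 with shGLP (−0.59 to 0.34, adjusted p = 0.868) and 0.02 with shHP1g (−0.44 to 0.48, adjusted p = 0.981). The last value turned to −0.43 without the pair of replicate 1 libraries (adjusted p = 0.0133). In ethanol ID4 was at 68.5 ± 8.47 CPM in shG9a and 44.4 ± 7.36 CPM in shNS (SD, n = 3), higher in 3 of 3 replicates with no overlap. Of all transcripts, 3.73% were called in this comparison and the groups of 19.2% did not overlap. The log2 fold change of ID4, 0.64 (0.16 to 1.12), did not pass the test (adjusted p = 0.15) and passed without the pair (0.63, adjusted p = 0.000114). With shGLP it was 0.23 (adjusted p = 0.792) and with shHP1g 0.58 (adjusted p = 0.224), the latter 0.10 without the pair (adjusted p = 0.738). The dex response of ID4 minus that in shNS was −0.57, −0.35 and −0.56 on the log2 scale with shG9a, shGLP and shHP1g, none of which passed (adjusted p = 0.739, 1 and 1). With no low-count filter the differences with shG9a (−0.56, adjusted p = 0.0285) and shHP1g (−0.56, adjusted p = 0.0421) passed.

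**Figure D2:**
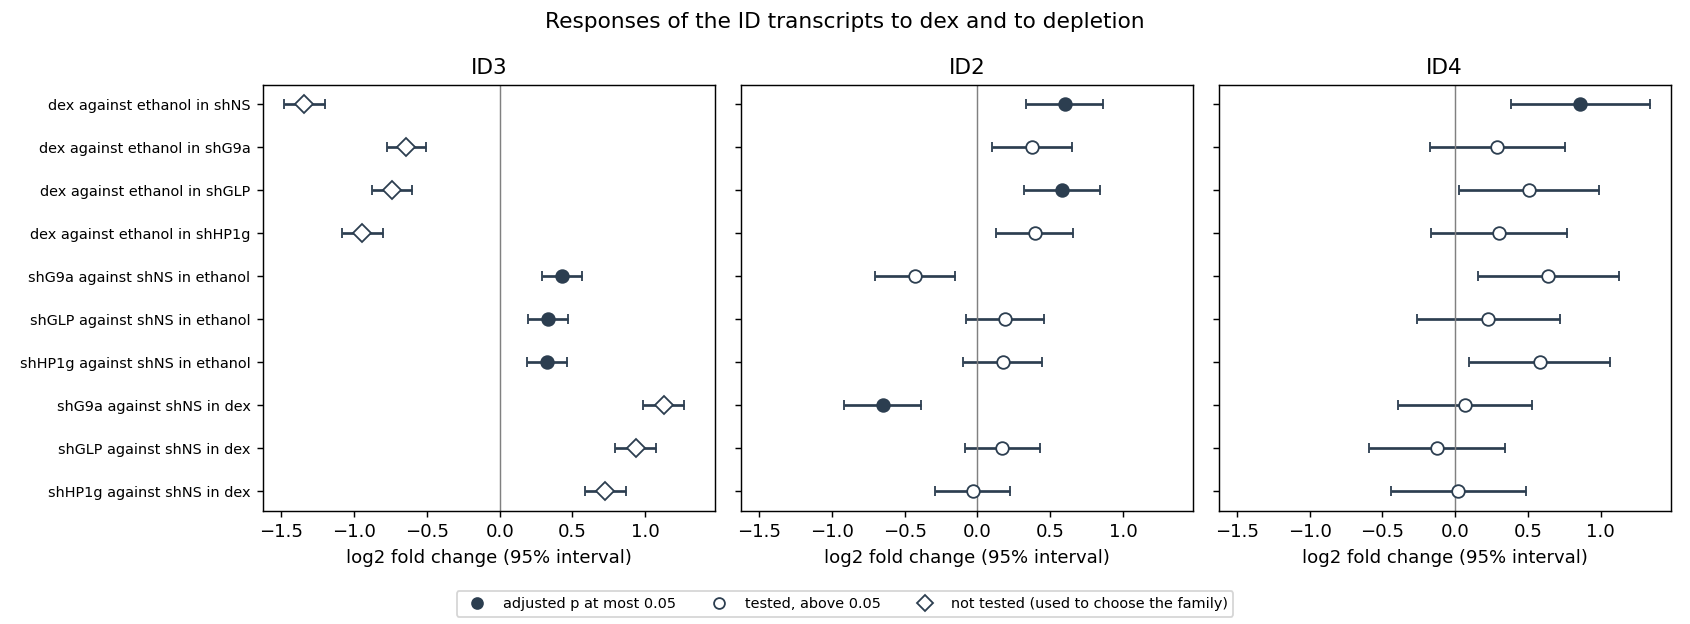
Log2 fold changes of ID3, ID2 and ID4 for dex against ethanol in each population and for each depletion against shNS, with 95% intervals from the edgeR model of 24 libraries. Filled circles passed an adjusted p of 0.05, open circles did not, and open diamonds are ID3 values that were used to choose the family and not tested. ID3 fell by 1.34 in shNS, whereas ID2 and ID4 rose by 0.60 and 0.86.

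Set per length of transcript, the composition of the family shifted with dex. The sum of ID2, ID3 and ID4 was 355 ± 4.57 CPM per kb (SD, n = 3) in shNS ethanol and 189 ± 8.02 in shNS dex, and ID3 made up 88.6% and 65.8% of it. The share of ID2 went from 8.16% to 23.3% and that of ID4 from 3.22% to 10.95%. With shG9a the sum was 462 ± 30.7 in ethanol and 321 ± 33.8 CPM per kb in dex, with ID3 at 91.5% and 84.6%. With shGLP it was 443 ± 9.52 and 306 ± 18.7, with ID3 at 89.6% and 77.6%. With shHP1g it was 446 ± 34.7 and 271 ± 5.13, with ID3 at 88.8% and 75.9%. In every library ID3 held more than ID2 and ID4 together. Since ID3 dominates the sum, these figures contain the values that singled it out and were not tested, and ID1 is missing from them.

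**Figure D3:**
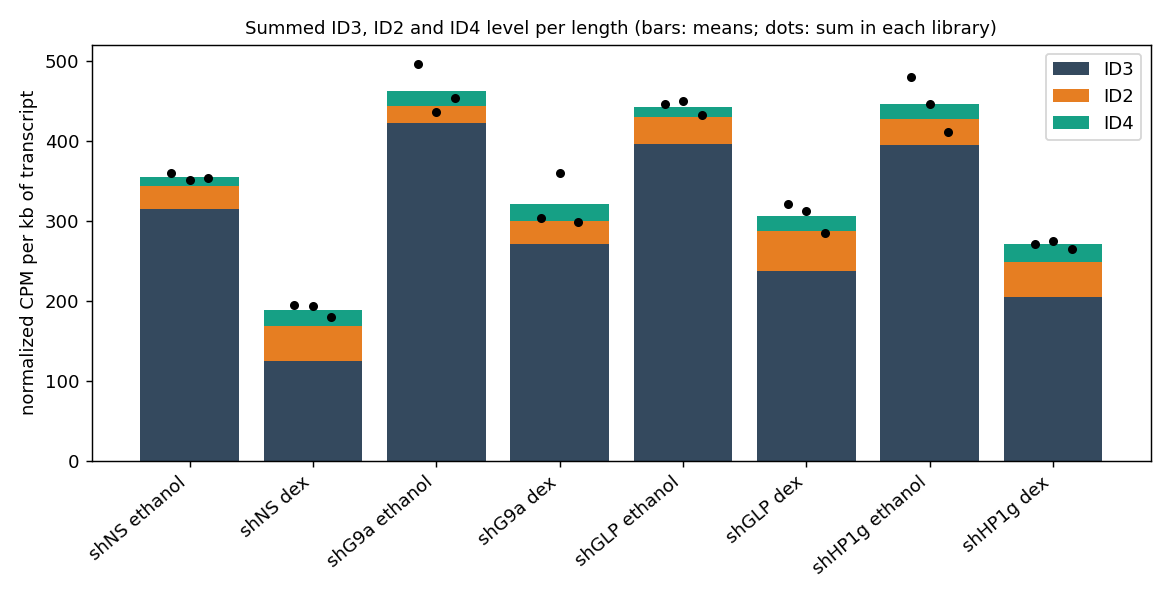
Stacked bars give the mean level of ID3, ID2 and ID4 in normalized CPM per kb of transcript in each condition (n = 3), and dots the sum in each library. The sum was lowest in shNS dex at 180 to 195 CPM per kb and highest in shG9a ethanol at 436 to 496.

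The transcripts most like each member were sought over the 24 libraries among 5604 transcripts with a mean of at least 5 CPM, by Pearson correlation of log2 CPM after the mean of each replicate was taken off. For ID3 they were YRDC (r = 0.947), BYSL (0.94), WDR43 (0.938), RRP9 (0.938) and CBX2 (0.937). YRDC modifies tRNA, BYSL, WDR43 and RRP9 act in ribosome assembly, and CBX2 is a Polycomb protein. Their dex responses in shNS were smaller than that of ID3, from −0.57 for BYSL to −0.37 for WDR43 on the log2 scale. In ethanol with shG9a the log2 fold change was 0.19 for CBX2 and between 0.04 and 0.11 for the other 4. For ID2 the closest were NKAIN4 (0.911), ABCA1 (0.904), SCPEP1 (0.898), SP100 (0.872) and IQGAP2 (0.87). With shG9a in ethanol the log2 fold change was −0.84 for ABCA1, the cholesterol exporter, −0.83 for IQGAP2, −0.54 for NKAIN4, −0.20 for SCPEP1 and −0.13 for SP100. These transcripts were picked for their likeness over the same libraries, so no test of them is given. For ID4 they were FRAT1 (0.907), GLCCI1 (0.879), ATG2B (0.871), CLEC12A (0.866) and NAALADL2 (0.864). GLCCI1 is named for its induction by glucocorticoids. Its log2 fold change with dex in shNS was 0.35 (SE 0.14). Among these 5 transcripts the value ran from 0.28 for ATG2B to 0.82 for CLEC12A, likewise without a test. The shHP1g groups, which hold the replicate 1 libraries that stood apart, had SDs of 0.531 in ethanol and 0.497 in dex for ID4. Among these 5 transcripts the SDs in shHP1g ethanol ran from 0.126 for ATG2B to 0.586 for CLEC12A. The weight of those libraries in the ID4 list was not tested. Between members the correlation was −0.653 for ID2 and ID3, −0.444 for ID3 and ID4 and 0.363 for ID2 and ID4. All correlations describe 24 libraries that share replicates, treatments and depth, and carry no p.

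**Figure D4:**
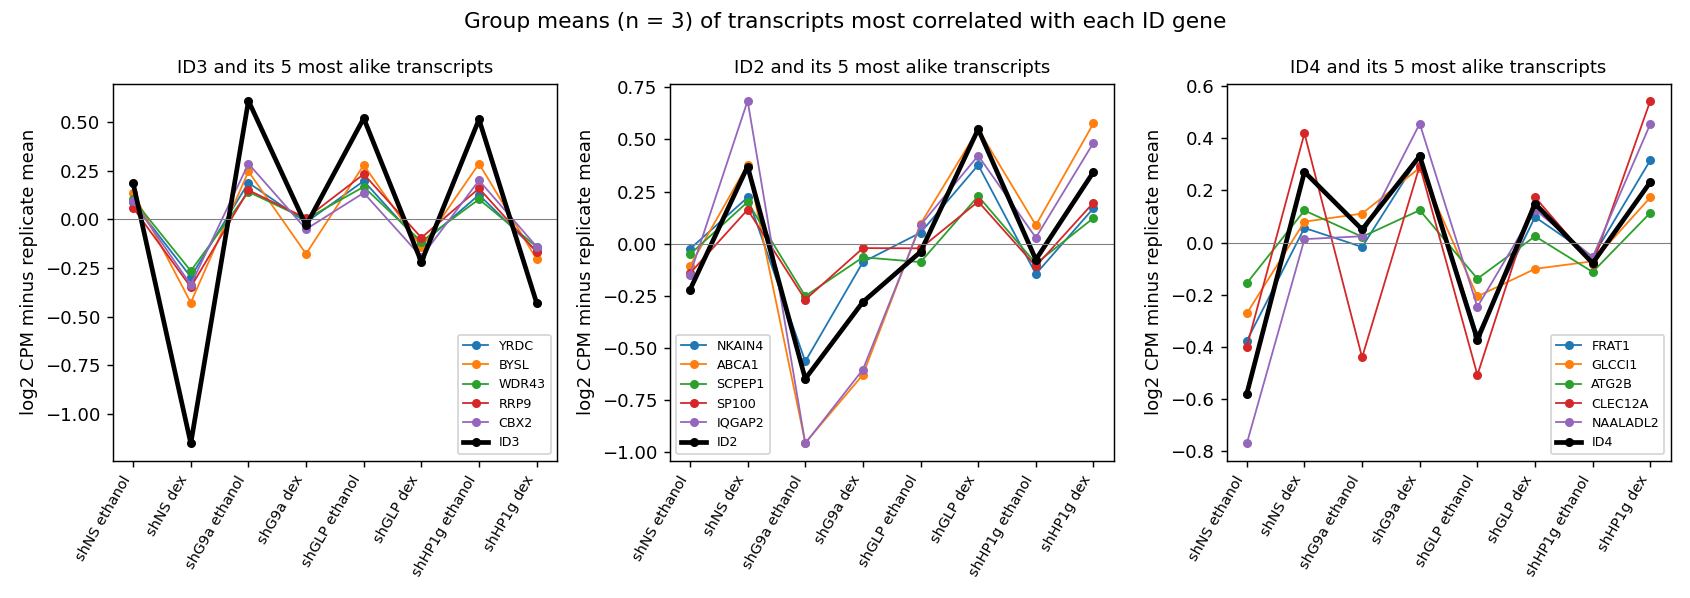
Group means (n = 3) of log2 CPM, minus the mean of each replicate, for ID3, ID2 and ID4 (thick black) and the 5 transcripts most correlated with each (thin). The profile of ID3 has its low point in shNS dex, that of ID2 in shG9a ethanol and that of ID4 in shNS ethanol.

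The inducers and opponents of ID genes were read from lists of the BMP, TGF-beta and SMAD pathway and of the EGR factors with their NAB corepressors. Of 15 tested transcripts of the former, 3 rose and 1 fell with dex in shNS, where 4.49% of all transcripts rose and 5.46% fell, with a median log2 fold change of 0.003 beside −0.028 over all transcripts. The 3 that rose belong to SMAD1, a transducer of BMP signals: NM_001354817 by 0.78 (adjusted p = 0.0043), NM_005900 by 0.41 (adjusted p = 0.0383) and NM_001354812 by 0.65 (adjusted p = 0.0489). The one that fell was NOG, a secreted BMP antagonist, with a log2 fold change of −1.96 (adjusted p = 0.00863) from 16 to 17 counts per library in ethanol. The SMAD1 accessions may share reads. With shHP1g the BMP receptor BMPR2 fell by 0.50 on the log2 scale in dex (adjusted p = 0.000645) and by 0.49 in ethanol (adjusted p = 0.00145). The activin receptor ACVR2B rose with shG9a in dex (0.38, adjusted p = 0.00843) and in ethanol (0.53, adjusted p = 0.000713). Of the 15 transcripts, 1 was higher and 1 lower with shG9a in dex, and the lower one is not named for this comparison. Over all transcripts, 8.8% were called with shG9a in dex and 3.73% in ethanol, and 4.09% and 2.91% with shHP1g. Of 5 tested EGR and NAB transcripts, NAB2 alone passed in shNS, with a log2 fold change of −1.24 (adjusted p = 0.0148) from 13 to 17 counts in ethanol to 5 to 8 in dex. With dex in shNS, 9.95% of all transcripts were called.

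Other helix-loop-helix genes changed in both directions. Of 15 tested transcripts, 2 rose and 3 fell with dex in shNS (median log2 fold change −0.048, with 9.95% of all transcripts called). HEYL, a Notch-responsive repressor, rose by 3.03 (adjusted p = 2.56e-07), from 1.65 ± 0.677 to 13.7 ± 3.01 CPM (SD, n = 3). MXD4, a MAX partner that opposes MYC, rose by 0.79 (adjusted p = 4.72e-05). Both also rose with dex in the 3 depleted populations. MXI1 (NM_130439), another MAX partner, changed by −1.02 (adjusted p = 0.0127), TFAP4, a MYC target, by −0.38 (adjusted p = 0.00403) and MNT, named after its value was seen, by −0.24 (adjusted p = 0.0231). In dex, TFAP4 was higher with shG9a (0.61, adjusted p = 5.37e-05), shGLP (0.34, adjusted p = 0.0144) and shHP1g (0.32, adjusted p = 0.0327). HEYL was lower with shGLP (−1.37, adjusted p = 0.0017) and shHP1g (−1.37, adjusted p = 0.00248). With shG9a, HEY2 was higher (0.70, adjusted p = 0.00226) and LYL1, a partner of E proteins, was lower in dex (−0.32, adjusted p = 0.00551) and in ethanol (−0.34, adjusted p = 0.00557). LYL1 was higher with shHP1g in ethanol (0.30, adjusted p = 0.0162). BHLHE40 rose in ethanol with shG9a (1.60, adjusted p = 0.0257) and shGLP (1.49, adjusted p = 0.039), on scattered values of 69 to 506 and 110 to 365 counts against 65 to 78 in shNS.

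Of the early B-cell genes that E proteins are known to drive, 8 transcripts could be tested. With dex in shNS the median log2 fold change was −0.101, and 1 of the 8 passed, where 9.95% of all transcripts were called. It was POU2AF1, the OCT coactivator of B cells, which fell by 0.43 on the log2 scale (adjusted p = 0.000141). It fell with dex in the other populations too, by 0.41 with shG9a (adjusted p = 0.000509), 0.28 with shGLP (adjusted p = 0.022) and 0.32 with shHP1g (adjusted p = 0.00701). With shGLP, 3 of 8 were higher and none lower in both treatments, where 5.77% of all transcripts were called in dex and 3.61% in ethanol. POU2AF1 was up by 0.68 in dex (adjusted p = 8.72e-07) and 0.53 in ethanol (adjusted p = 2.71e-05). RAG1, a subunit of the V(D)J recombinase, was up by 0.68 (adjusted p = 0.000147) and 0.56 (adjusted p = 0.00176), and VPREB3 by 0.68 (adjusted p = 0.00572) and 0.54 (adjusted p = 0.0448). With shG9a, RAG1 was up by 0.42 in dex (adjusted p = 0.013) and 0.58 in ethanol (adjusted p = 0.00167). In dex RAG2 changed by −1.05 with shG9a (adjusted p = 0.00561) and FOXO1, named after its value was seen, by −0.29 (adjusted p = 0.0158). With shHP1g, POU2AF1 was the 1 transcript of the 8 that passed, at 0.39 in dex (adjusted p = 0.00122) and 0.28 in ethanol (adjusted p = 0.0247). Of all transcripts, 4.09% were called with shHP1g in dex and 2.91% in ethanol. Cyclin-dependent kinase inhibitors, a further set of genes under E-protein control, had 5 tested transcripts. Of these, CDKN2C passed with shGLP in dex (0.27, adjusted p = 0.0295), where 5.77% of all transcripts were called. Nothing else in this set passed in the comparisons of dex with ethanol or of a depletion with shNS.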

How the data were processed

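Total RNA of 24 Nalm6 cultures was sequenced by the authors. After trimming, HISAT2 placed the reads on hg19, and GenomicAlignments assigned them to RefSeq entries. The deposited values are raw counts per accession. Of a second deposited table, which holds the authors' fold changes and FDR values, only the gene names were used (9872 accessions, and 53873 more from RefSeq). Counts were tested with the quasi-likelihood test of edgeR 4.0.16 in R 4.3.3. Accessions needed over 1 CPM in 2 or more libraries, which left 10167. Library sizes were scaled by upper quartiles, the model held 8 groups with the replicate number as a block, and p values were adjusted by Benjamini-Hochberg over all tested accessions, with calls at 0.05 and intervals of 95%. The CPM values given are scaled the same way, whereas the filter used unscaled library totals. The block was used because the labels place replicates on different days. Of 84 pairs of same-numbered libraries from different groups, 56 deviated together at r above 0.1 (range over all pairs 0.012 to 0.535). These pairs share libraries and are not independent. The model was tested on simulated data. Alternatives were no block, other scalings, filters and models, DESeq2 1.42.0, counts summed per gene and the omission of replicates or libraries. The members and lists were chosen with earlier results of these data known, and the comparisons between depletions and the omission of both shHP1g replicate 1 libraries after values were seen. The text names all members, the listed transcripts that passed (up to 4 with the smallest p per list and kind of comparison) and the 5 most like each member. An exception is the BMP-list transcript that was lower with shG9a in dex. Limits and depths cover counting error only. One marker of B-cell precursors is not reported here.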

Additional observations from a re-analysis of the deposited data

Results flagged for a closer look

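ID2 differed between depletions of G9a and of the other coregulators, in both treatments. These differences were tested in the same edgeR model and passed an adjusted p of 0.05, but with only the groups of the comparison in the model both differences between shG9a and shHP1g were lost (adjusted p = 0.0635 in dex and 0.0709 in ethanol). The log2 difference of shG9a minus shGLP was −0.82 in dex and −0.62 in ethanol. The log2 difference of shG9a minus shHP1g was −0.62 in dex and −0.60 in ethanol. Fits that left out a replicate, a single library or both shHP1g libraries of replicate 1 gave −0.91 to −0.75 and −0.69 to −0.47 for the first 2. They gave −0.72 to −0.54 and −0.77 to −0.33 for the last 2. The first kept an adjusted p of at most 0.05 in 28 of 28 such fits, and the others in 25, 27 and 25 of 28. Most of these fits left out no library of the compared groups, so they bear on the shared spread more than on the difference itself.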

How the results depend on the processing

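For ID2, ID3 and ID4, 30 comparisons of dex with ethanol or of a depletion with shNS were recomputed under 37 alternatives each. Of 1110 values, 1067 kept their side of the threshold or, for untested ID3 values, moved by less than the spread between replicates. A value uncalled in both fits counted as kept even where its direction turned. ID2 with shHP1g in ethanol, for example, went from 0.17 to −0.10 without both shHP1g libraries of replicate 1. Without the replicate block, the dex response of ID4 in shNS was 0.86 and no longer passed (adjusted p = 0.154), and the block changed no other call of a member. Over all transcripts, leaving out the block lowered the number called for dex in shNS from 1012 to 518. With no low-count filter, calls were gained for ID2 with dex in shG9a (0.36) and shHP1g (0.37), ID4 with dex in shGLP (0.48), ID2 and ID4 with shG9a in ethanol (−0.44 and 0.63) and ID4 with shHP1g in ethanol (0.49). The ID3 difference with shHP1g in ethanol was lost (0.24), and that with shGLP in dex moved to 0.89. The ID4 dex response minus that in shNS passed with shG9a (−0.56) and shHP1g (−0.56). With only the groups of the comparison in the model, calls were gained for ID2 with dex in shHP1g (0.42), ID4 with dex in shGLP (0.53) and shHP1g (0.31), and ID2 and ID4 with shG9a in ethanol (−0.40 and 0.65), and lost for ID2 in shG9a against shHP1g, in dex (−0.64) and ethanol (−0.58). With 1 factor of unwanted variation in place of the block, ID4 with shG9a in ethanol passed the threshold, at 0.63. The causes were not tested, beyond the shHP1g pair described above.

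Leaving out replicates or libraries gave ranges that crossed the threshold for several members. For the dex response these were 0.53 to 0.71 for ID2 in shNS, 0.25 to 0.46 in shG9a, 0.51 to 0.69 in shGLP and 0.25 to 0.67 in shHP1g. For ID4 they were 0.75 to 0.94 in shNS, 0.13 to 0.42 in shG9a, 0.30 to 0.69 in shGLP and −0.10 to 0.74 in shHP1g. With shG9a, ID2 ranged from −0.75 to −0.57 in dex and from −0.47 to −0.37 in ethanol, and ID4 in ethanol from 0.54 to 0.77. ID3 in ethanol ranged from 0.38 to 0.49 with shG9a, 0.31 to 0.36 with shGLP and 0.31 to 0.38 with shHP1g. ID4 with shHP1g in dex ranged from −0.43 to 0.30, the lowest being the reversal without both replicate 1 libraries of shHP1g, and in ethanol from 0.10 to 0.78. Transcripts at a few counts, such as those of ID1 and the E proteins, are limited by depth and by how shared reads were counted.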
